A study of Mus musculus with 5 samples.

Results

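Protein tyrosine phosphatases remove phosphate from tyrosine residues and so oppose the kinases that carry antigen receptor signals. The 10 genes described here encode the transmembrane phosphatases Ptprc (CD45) and Ptprj (CD148) and the cytoplasmic enzymes Ptpn6 (SHP-1), Ptpn11 (SHP-2), Ptpn22, Ptpn12, Ptpn18, Ptpn1 (PTP1B), Ptpn2 (TC-PTP) and Ptpn7. They were taken by gene symbol from 23234 genes measured by RNA sequencing in germinal centre light zone B cells of mouse spleen. All 10 were found.

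Naive donor B cells carried B1-8hi, a knocked-in heavy chain that binds the hapten NP, on 1 allele, ERT2cre, a Cre recombinase that tamoxifen activates, on 1 allele, and the CD45.1/2 allotype pair. The donors were either Csk(+/+) or Csk(fl/fl), the genotype written Csk(f/f) in the sample names. The recipients, C57BL/6J mice, received NP-CGG with alum on day 0 and tamoxifen on days 8 and 9. On day 11 the NP-binding donor light zone B cells were sorted, and each library was made from about 10000 cells. There were 3 Csk(+/+) and 2 Csk(f/f) libraries, which the design text calls biological replicates, and the Csk(+/+) libraries are called controls below. Both groups thus carried the Cre, the B1-8hi receptor and the tamoxifen treatment, and the cells were transferred B cells in hosts with their own lymphocytes.

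Csk switches Src family kinases off by adding a phosphate to a tyrosine in their tail, and CD45 takes it away. In B cells CD45 and CD148 keep a pool of Lyn, Fyn and Blk able to fire, whereas SHP-1 is recruited to inhibitory receptors such as CD22 and dampens the signal. Ptpn22 binds Csk, and Ptpn12 is its close relative. All classical tyrosine phosphatases act through a cysteine in the catalytic pocket, which hydrogen peroxide can oxidise and thereby silence. The series title names B cell receptor-driven reactive oxygen species, so the transcript levels of these enzymes bear on which oxidisable phosphatases the cells contained.

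The coding stretch of that catalytic site is shown because it is the feature all members share. It spans 24 bases, the codons of histidine, cysteine, 5 further residues and arginine, read 5′ to 3′ from the longest protein-coding GENCODE M21 transcript (GRCm38) of 9 members. Capitals mark the codon of the catalytic cysteine.
Ptprc: cacTGCagtgctggtgttgggcgt
Ptprj: catTGCagtgctggggttggaagg
Ptpn6: catTGCagcgctggcatcggccgc
Ptpn11: cacTGCagcgctgggattggccgg
Ptpn22: cacTGCagtgccggctgcggaagg
Ptpn12: catTGCagtgcaggctgtggacga
Ptpn18: cacTGCagtgctggctgcggacga
Ptpn1: cacTGCagcgccggcatcgggagg
Ptpn7: cacTGCagtgcagggatcggccgg

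The signature occurred once in the open reading frame of each of the 10 members, and the cysteine codon was the same in all 10. Pairs of members shared 15 to 21 of the 24 bases. Ptpn22, Ptpn12 and Ptpn18, the PEST-type phosphatases, were the 3 members with a further cysteine codon inside the stretch. The same residue pattern was present in 541 of 20247 genes with a coding transcript (2.67%) and in 27 of 28 other tyrosine phosphatase genes with one. The cysteine lay at residue 842 of 1293 in Ptprc, 1252 of 1350 in Ptprj, 455 of 597 in Ptpn6, 459 of 593 in Ptpn11 and 215 of 432 in Ptpn1.

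Expression values are FPKM, fragment numbers scaled to transcript length and to library size, as deposited. The spacing of the lowest values put the depth at roughly 9770000 to 23400000 fragments per library. At these depths and the GENCODE lengths, a library held about 38.6 to 112 fragments of Ptpn22 and 10933 to 27033 of Ptpn6, so the lowest members rest on the fewest fragments. Transcript of the targeted gene, Csk, was 378, 436 and 415 FPKM in the Csk(+/+) controls, against 453 and 476 in Csk(f/f)-labelled cells, and was therefore not lower in the latter (log2 difference 0.18, limma adjusted p = 0.439, and -0.14 after the GC correction described below). Which exons were floxed is not given in the sources used here, and a gene-level value includes undeleted exons, so the labels stand unchecked and the second group is called Csk(f/f)-labelled. Of the B cell markers, Cd79a stood at 936 to 1388 FPKM over the 5 libraries, Ms4a1 at 285 to 687 and Pax5 at 98.4 to 149.7, and all 6 germinal centre, all 4 light zone and all 3 dark zone markers passed the filter on low values. Of the 5 B cell markers, Cd79a was higher and Ms4a1 lower in Csk(f/f)-labelled cells without overlap of the groups. Their log2 differences were 0.29 and -0.63 (limma adjusted p = 0.388 and 0.208), and 0.07 and -0.16 after the GC correction. The light zone markers summed to 719.6 to 745 FPKM in the controls and 859 to 874 in Csk(f/f)-labelled cells. Dark zone markers summed to 105 to 128 FPKM in the controls and to 114 in each Csk(f/f)-labelled library. Gene by gene, 2 of the 4 light zone markers were higher and 1 lower without overlap of the groups. Of the 3 dark zone markers 1 was lower without overlap. Of all tested genes 20.7% were separated upward and 24.5% downward. The 4 plasma cell markers summed to 207 to 251 FPKM in the controls and 182 to 208 in Csk(f/f)-labelled cells. Of the 2 that were tested, 1 was higher and 1 lower without overlap of the groups. Without Csk(+/+) replicate 3, 1 dark zone and 1 plasma cell marker passed the adjusted limma threshold with lower values, where 4.05% of all genes passed. All 6 germinal centre markers were separated between the groups, 2 higher and 4 lower, where 45.1% of all tested genes were separated. Their sums overlapped, at 789 to 830 FPKM in the controls and 811 to 830 in Csk(f/f)-labelled cells. Among these markers Rgs13 differed most, with means of 51.3 and 21.2 FPKM (log2 difference -1.23, limma adjusted p = 0.155, and -0.61 after the GC correction). The T cell genes Cd3e and Cd3g were listed at 0 in all 5 libraries. The 7 T cell markers summed to 1.17 to 2.50 FPKM in Csk(+/+) and 3.67 to 4.83 in Csk(f/f)-labelled libraries, most of it Thy1, and the 5 macrophage markers to 11.6 to 21.5 and 23.7 to 24.1, most of it Lyz2 and Cd68. The 4 platelet and erythroid markers summed to 138 to 769 FPKM in the controls and 99.6 to 375 in Csk(f/f)-labelled cells, which overlapped, with a median log2 difference of -0.96 over the 2 tested. The 3 neutrophil markers reached 2.65 FPKM in 1 control and were listed at 0 in the other libraries. Myeloid cells also express several of the phosphatases, and the part of these marker differences in the values below was not tested. In bulk libraries such as these, fewer cells of a type and less RNA per cell cannot be told apart.

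Differences between the groups were tested with limma on log2(FPKM + 1) over 10242 genes, those that reached 1 FPKM in 2 or more libraries, with Benjamini-Hochberg adjustment over all of them. All differences below are Csk(f/f)-labelled minus Csk(+/+), on that scale, with a standard error (SE), and they understate the change of genes near 1 FPKM. All 10 phosphatases passed the filter. At an adjusted p of 0.05, 0 of the 10 passed and 0.0781% of all tested genes did. At an unadjusted limma p under 0.05 there were 4 members, Ptpn1 with higher and Ptprc, Ptpn2 and Ptpn12 with lower values, where 21.7% of all tested genes stood at that level, 8.07% with higher and 13.6% with lower values. The libraries of the groups did not overlap for 6 members, 2 higher and 4 lower, where 20.7% of all tested genes were separated upward and 24.5% downward (45.1% together). The median difference of the 10 members was -0.08, beside -0.01 over all tested genes. Csk(+/+) replicate 3 stood apart from the other libraries in many genes, with an estimated weight of 0.259 against at least 1.35 for the others. The 2 Csk(f/f) libraries lie equally far from their mean, so their weights are equal and cannot show whether 1 of them stood apart. Without Csk(+/+) replicate 3, 0 of the 10 members again passed the adjusted threshold by limma, while 4.05% of all genes did. At an unadjusted p under 0.05 that fit had 1 member with higher values (Ptpn1) and 4 with lower values (Ptprc, Ptpn2, Ptpn12 and Ptprj), beside 13.3% and 21.4% of all genes.

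The levels of the members spanned more than 2 orders of magnitude. Ptpn6 stood highest in every library, at the 98.2 percentile of tested genes, and no other member reached its lowest value of 403 FPKM. Ptpn1 and Ptprc came next and could not be ordered, since Ptprc was the higher of the pair in all 3 Csk(+/+) libraries and Ptpn1 in both Csk(f/f)-labelled ones. Ptpn18 was below Ptprc in 5 of 5 libraries, although their ranges over libraries overlapped. Ptpn7 was above Ptpn11 in 5 of 5 libraries with overlapping ranges, and Ptpn11 above Ptpn2 in 3 of 5. Ptprj was lower than these, at the 40.2 percentile, and Ptpn12 and Ptpn22 were lowest, at the 14.4 and 8.34 percentiles, with Ptpn12 above Ptpn22 in 4 of 5 libraries.

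**Figure D1:**
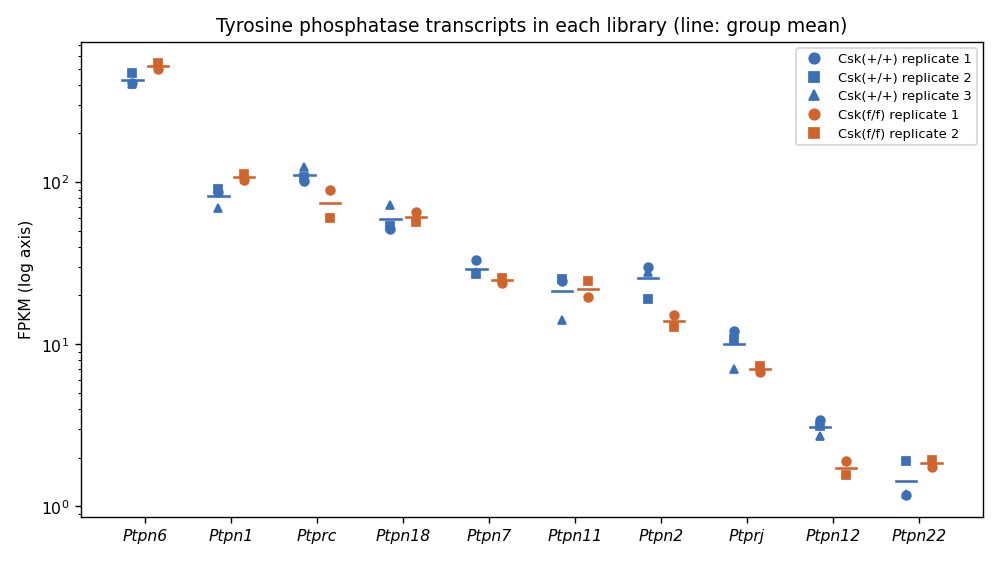
FPKM on a log axis for the 10 phosphatase genes, ordered by level, with 1 point per library (blue Csk(+/+), orange Csk(f/f)-labelled, marker shape for the replicate number) and a line at each group mean. Ptpn6 lies between 403 and 540.0 FPKM and Ptpn22 between 1.17 and 1.93.

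Ptprc encodes CD45, the most abundant receptor-type phosphatase of lymphocytes. Its FPKM was 101, 107 and 124 in the Csk(+/+) controls, against 89.0 and 60.1 in Csk(f/f)-labelled cells. Both Csk(f/f)-labelled values lay under the lowest Csk(+/+) value, and they differed from each other by more than the Csk(+/+) values did. The means were 111 ± 11.98 FPKM over 3 libraries and 74.5 ± 20.4 over 2 (SD), a log2 difference of -0.59 ± 0.19 (SE), that is 0.665-fold with a 95% interval of 0.492 to 0.900, and a limma adjusted p of 0.175. After the correction for transcript GC content the difference was -0.19 (adjusted p = 0.817 by limma), and over all alternatives the adjusted p ran from 0.0702 to 0.9995. Without Csk(f/f) replicate 2, the lower library, the difference was -0.31. Ptprcap, which encodes the small protein that associates with CD45, had 572, 655 and 687 FPKM in the controls and 808 and 777 in Csk(f/f)-labelled cells, which is the opposite order (log2 difference 0.32, limma adjusted p = 0.265), and the GC correction left 0.03 of it.

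Ptprj encodes CD148, which overlaps with CD45 in activating Src family kinases of B cells. CD148 transcript read 12.1, 10.8 and 6.99 in the Csk(+/+) controls, against 6.77 and 7.37 FPKM in Csk(f/f)-labelled cells. Csk(+/+) replicate 3 fell among the Csk(f/f)-labelled values and the other 2 Csk(+/+) libraries lay above them. The log2 difference was -0.42 ± 0.24 (SE), with a limma adjusted p of 0.332. Without Csk(+/+) replicate 3 it was -0.63, with an adjusted p of 0.057, which did not pass. With all 5 libraries the GC correction changed it little, to -0.35.

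Ptpn6 encodes SHP-1, the main phosphatase recruited by inhibitory receptors of B cells, and supplied 53.7% to 58.2% of the summed FPKM of the 10 genes in Csk(+/+) and 60.5% and 64.1% in Csk(f/f)-labelled libraries. Its FPKM was 408, 471 and 403 in the controls and 499.6 and 540.0 in Csk(f/f)-labelled cells, so that the groups did not overlap. The log2 difference was 0.28 ± 0.14 (SE), a fold of 1.22 with a 95% interval of 0.967 to 1.54, and a limma adjusted p of 0.279. With the GC correction 0.07 remained. An antisense transcript, Gm20531, overlaps Ptpn6 exons in GENCODE, and without stated strand counting reads from both cannot be told apart.

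Ptpn11 encodes SHP-2, which shares the tandem SH2 domains of SHP-1 but mostly promotes Ras signalling. Its FPKM was 24.6, 25.4 and 14.1 in the controls and 19.5 and 24.5 in Csk(f/f)-labelled cells. The groups overlapped, and Csk(+/+) replicate 3 was the lowest of the 5. The log2 difference was 0.07 with a 95% interval of -0.54 to 0.68, a fold between 0.690 and 1.60 (limma adjusted p = 0.880). Its sign turned without Csk(+/+) replicate 3 (-0.19) and after the GC correction (-0.02). The transcript of SHP-1 exceeded that of SHP-2 by 16.6, 18.6 and 28.5 times in the Csk(+/+) libraries and by 25.7 and 22.1 times in the Csk(f/f)-labelled ones, ratios of FPKM that overlapped between groups.

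The PEST-type enzymes differed widely in level. Ptpn22, the lymphoid phosphatase that binds Csk and acts on Src family kinases and Syk or ZAP-70, had only 1.17, 1.90 and 1.20 FPKM in the controls and 1.75 and 1.93 in Csk(f/f)-labelled cells. Csk(+/+) replicate 2 lay among the Csk(f/f)-labelled values. On the log2 scale the groups differed by 0.24 ± 0.21 (SE, limma adjusted p = 0.505). The difference was larger, 0.53 ± 0.21, after the GC correction (adjusted p = 0.531 by limma), with a range of adjusted p over all alternatives of 0.263 to 0.9995.

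Ptpn12, the broadly expressed PTP-PEST that controls the cytoskeleton through Pstpip1 and related proteins, had 3.39, 3.14 and 2.72 FPKM in the controls and 1.91 and 1.55 in Csk(f/f)-labelled cells. The groups did not overlap. They differed by -0.58 ± 0.19 on the log2 scale (SE), a fold of 0.668 with a 95% interval of 0.489 to 0.913, and a limma adjusted p of 0.179. The GC correction reduced it to -0.26. At these low levels log2(FPKM + 1) compresses the contrast, and the plain ratio of the mean FPKM values was 0.560.

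Ptpn18, a PEST-type enzyme of haematopoietic cells, was far more abundant than its relatives, with 51.1, 53.4 and 72.5 FPKM in the controls and 65.5 and 56.8 in Csk(f/f)-labelled cells. The Csk(f/f)-labelled values lay inside the Csk(+/+) range. The log2 difference was 0.06 with a 95% interval of -0.35 to 0.48 (limma adjusted p = 0.844), and the GC correction turned it to -0.24. A transcript on the opposite strand, Gm28417, overlaps its exons in GENCODE.

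Ptpn1 and Ptpn2 encode the closely related phosphatases PTP1B and TC-PTP, which act on JAK kinases among other targets, and their group means differed in opposite directions. Ptpn1 had 87.4, 90.3 and 69.1 FPKM in the controls and 103 and 112 in Csk(f/f)-labelled cells. The log2 difference of Ptpn1 was 0.39 ± 0.15 (SE), a fold of 1.31 with a 95% interval of 1.02 to 1.68, with no overlap of the groups and a limma adjusted p of 0.211. Ptpn2 had 30.1, 19.1 and 27.9 FPKM in the controls and 15.2 and 12.7 in Csk(f/f)-labelled cells, again without overlap.

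The difference of Ptpn2 was the largest of the 10, at -0.81 ± 0.22 (SE), a fold of 0.569 with a 95% interval of 0.401 to 0.806, and a limma adjusted p of 0.155. Over its alternatives the adjusted p by limma ran from 0.0488 to 0.9995, and 1 of them passed. The GC correction reduced the difference of Ptpn1 to 0.14 and that of Ptpn2 to -0.32. Within a library, the ratio of Ptpn1 to Ptpn2 FPKM was 2.91, 4.73 and 2.47 in the controls and 6.73 and 8.85 in Csk(f/f)-labelled cells. This pair was chosen after its values were seen and its ratio was not tested. The groups had to separate in this ratio, since Ptpn1 was higher and Ptpn2 lower without overlap.

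Ptpn7 encodes the haematopoietic phosphatase HePTP, which acts on MAP kinases. It had 32.8, 26.9 and 28.0 FPKM in the controls and 23.8 and 25.6 in Csk(f/f)-labelled cells, with the Csk(f/f)-labelled values just under the lowest Csk(+/+) value. Its log2 difference was -0.23 ± 0.15 (SE, limma adjusted p = 0.367). It was larger in size after the GC correction, -0.38 ± 0.14 (adjusted p = 0.491 by limma), with adjusted p-values from 0.205 to 0.9995 over all alternatives.

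**Figure D2:**
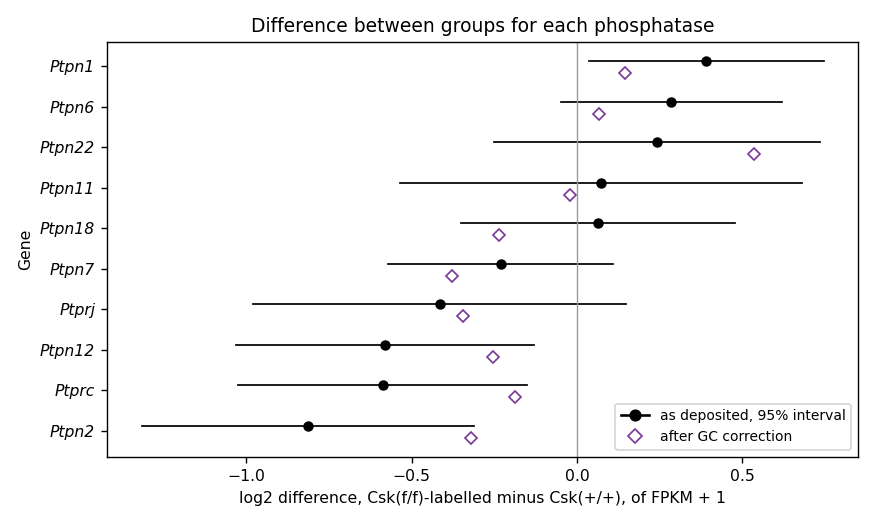
Log2 difference of FPKM + 1, Csk(f/f)-labelled minus Csk(+/+), for each phosphatase, with its 95% interval (black) and the value after the GC correction (open diamonds). The intervals of Ptpn1, Ptpn12, Ptprc and Ptpn2 do not include 0 before adjustment, and the corrected values of these 4 genes lie nearer to 0.

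The differences of the members followed the GC content of their transcripts. Over the 10 genes Spearman's rho between difference and GC content was 0.76, given as a description over genes that share their libraries, and over 10119 tested genes with a GC value it was 0.73. Ptpn2, at 39.7% GC, and Ptprc, at 42.7%, lay with Ptpn12 (44.4%) at the low end, where the median difference of all genes was between -0.51 and -0.30. Ptpn6 (54.9%), Ptpn1 (55.8%) and Ptpn18 (58.4%) lay at the high end, where that median was 0.20 to 0.31. Ptpn22, at 45.1%, stood farthest above the genes of like GC content (by 0.53 after the correction), and Ptpn7 (53.0%) and Ptprj (49.0%) farthest below them (-0.38 and -0.35). The correction subtracted from each library the smoothed trend of its deviation from the gene means against GC content. After it 0 of the 10 members passed the adjusted threshold by limma (0.0692% of all genes did). At an unadjusted p under 0.05 there were then 2 members, Ptpn22 with higher and Ptpn7 with lower values, beside 4.16% of all genes higher and 4.76% lower. For Ptprc, Ptpn2, Ptpn12, Ptpn1 and Ptpn6 the correction removed more than 50% of the difference. It also takes out any difference between the cells that follows GC content, and technical and cellular parts of the trend cannot be told apart.

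**Figure D3:**
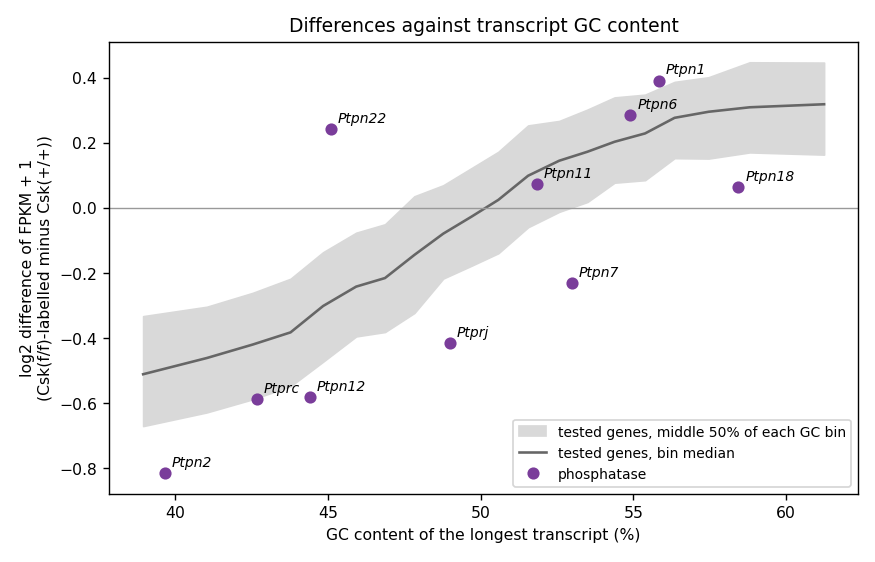
Log2 difference of FPKM + 1 against the GC content of the longest transcript (%), with the phosphatases as points, the median of tested genes in 20 bins of GC content as a line and the middle 50% of each bin in grey. Ptpn2 (39.7% GC) and Ptpn1 (55.8%) lie near opposite ends of the trend, Ptpn22 lies farthest above the line and Ptpn7 farthest below it.

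The balance of CD45 and Csk transcripts was compared within each library, because the 2 enzymes act in opposite directions on the same tail tyrosine. A gene-level Csk value includes undeleted exons, so in Csk(f/f)-labelled cells the ratios to Csk do not give the balance of the enzymes. Csk FPKM exceeded that of Ptprc by 3.73, 4.08 and 3.34 times in the Csk(+/+) libraries and by 5.09 and 7.91 times in the Csk(f/f)-labelled ones. Ptprc minus Csk on the log2(FPKM + 1) scale averaged -1.88 ± 0.14 in the 3 controls and -2.65 ± 0.44 over the 2 Csk(f/f)-labelled ones (SD, n = 3 and n = 2), lower in both of the latter than in any control. That order follows from Csk being higher and Ptprc lower without overlap, each by itself. A two-sided exact permutation test gave p = 0.1 for the change of -0.77, which is the smallest p that the 10 splits allow. After the GC correction the change was -0.05 (exact permutation p = 0.8). The change was -0.46 without Csk(f/f) replicate 2. Ptpn22, the partner of Csk, was 229 to 347 times lower than Csk in the Csk(+/+) libraries and 259 and 246 times lower in the Csk(f/f)-labelled ones. On the log2(FPKM + 1) scale the balance of Ptpn22 and Csk differed by 0.06 between groups (two-sided exact permutation p = 0.7). That value was 0.67 after the GC correction, with an exact permutation p of 0.2.

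SHP-1 transcript relative to CD45 transcript, another pair chosen after the values were seen, stood at 4.02, 4.40 and 3.24 in the controls and 5.62 and 8.98 in Csk(f/f)-labelled cells. The 2 groups did not overlap in this ratio, and it was not tested. That separation is no further result, since Ptpn6 was higher and Ptprc lower without overlap, each by itself. It sets a gene of high GC content over one of low GC content, and the log2 differences of Ptpn6 and Ptprc went from 0.28 and -0.59 to 0.07 and -0.19 with the GC correction.

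**Figure D4:**
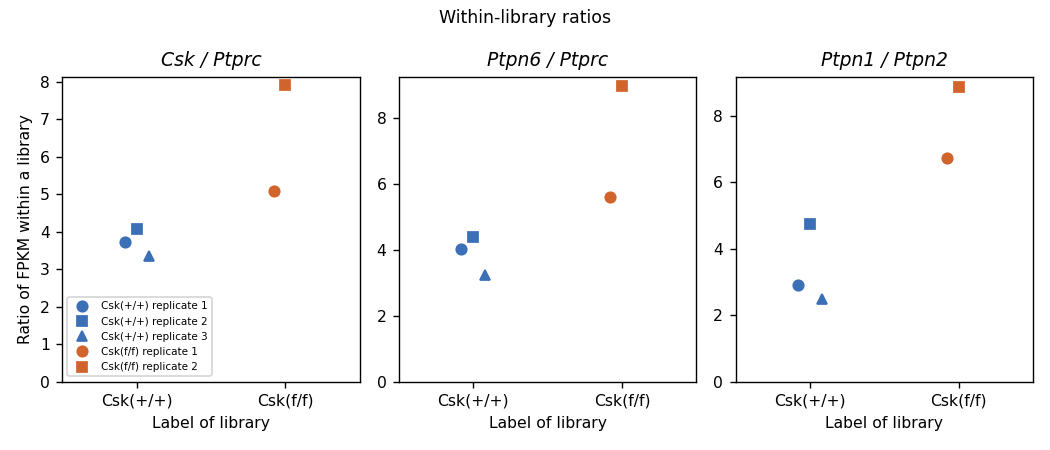
Ratios of FPKM as deposited, without the GC correction, within each library for Csk to Ptprc, Ptpn6 to Ptprc and Ptpn1 to Ptpn2, on axes that start at 0, with 1 point per library. In all 3 panels both Csk(f/f)-labelled libraries lie above the Csk(+/+) libraries, with Csk(f/f) replicate 2 highest (7.91, 8.98 and 8.85). In each panel the first gene was higher and the second lower without overlap by itself, so this separation follows from the single genes.

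Most other tyrosine phosphatase genes stood under the filter in these cells. Of 29 listed, 8 were at 0 FPKM in all 5 libraries and 9 passed the filter, and 0 of these 9 passed the adjusted threshold by limma (0.0781% of all genes did). At an unadjusted p under 0.05, 1 was higher and 1 lower, where 8.07% and 13.6% of all genes stood at that level, and the median difference was -0.14. The most abundant was Ptpra, a receptor phosphatase that also acts on the Src tail tyrosine, with 22.9, 26.0 and 19.9 FPKM in the controls and 19.3 and 21.5 in Csk(f/f)-labelled cells, which overlapped. Acp1, the low molecular weight phosphatase, had 16.5, 14.4 and 16.1 FPKM in the controls and 9.44 and 7.65 in Csk(f/f)-labelled cells. Its log2 difference was -0.81 ± 0.17 (SE, limma adjusted p = 0.154), and -0.39 after the GC correction. It passed without Csk(+/+) replicate 3 (log2 difference -0.79, limma adjusted p = 0.0471), in a range of 0.0326 to 0.9995 over all alternatives.

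Ptpn23, which takes part in endosomal sorting, was the gene of this list with higher values at an unadjusted p under 0.05. It had 11.8, 12.6 and 7.70 FPKM in the controls and 17.8 and 19.0 in Csk(f/f)-labelled cells, a log2 difference of 0.76 ± 0.22 (SE, limma adjusted p = 0.165), and 0.46 after the GC correction. The remaining 6, by level, were Ptprs (4.08 to 8.38 FPKM over the 5 libraries), Ptpn9 (2.74 to 5.59), Ptpre (1.81 to 2.70), Ptprv (0.343 to 2.20), Ptpn4 (0.941 to 1.74) and Ptpn21 (0.926 to 1.31). Ptpre, a relative of Ptpra, was the only one of these 6 whose groups did not overlap, lower in Csk(f/f)-labelled cells. Among all tested genes 24.5% were separated downward.

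Partners and substrates of the phosphatases formed a list of 50 genes in the table, of which 41 were tested. By limma 0 passed the adjusted threshold, 10 of the 41 had an unadjusted p under 0.05 (7 with higher and 3 with lower values) beside 21.7% of all genes, and the median difference was 0.12. After the GC correction 2 with higher and 1 with lower values were left at that level. Among Syk and the Src family kinases, of which the latter are substrates of CD45 and CD148, Blk had the smallest p. It had 108 ± 11.6 (SD, n = 3) and 176 ± 4.02 FPKM (SD, n = 2), a log2 difference of 0.70 and a limma adjusted p of 0.132. Without Csk(+/+) replicate 3 Blk passed (0.67, limma adjusted p = 0.0398), in a range of 0.0259 to 0.9995 over its alternatives, and after the GC correction its difference was 0.52. Fgr came next, with means of 9.52 FPKM in the controls and 11.8 in Csk(f/f)-labelled cells (limma adjusted p = 0.330).

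Receptors with inhibitory tyrosine motifs dock SHP-1 or related enzymes. Cd22, the main such receptor of B cells, had a mean of 288 FPKM in Csk(+/+) and 355 in Csk(f/f)-labelled libraries (log2 difference 0.31), and Fcgr2b, which recruits mainly the inositol phosphatase SHIP, 70.3 and 60.6 (-0.21, and 0.06 after the GC correction). Their limma adjusted p-values were 0.341 and 0.337. Of the receptor's own chains, Cd79b had 1278 and 1704 FPKM and Cd79a 1133 and 1369, with limma adjusted p-values of 0.306 and 0.388.

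Among docking and adaptor proteins, Dok1, a Ras GAP-binding adaptor, had 32.2 ± 1.98 (SD, n = 3) and 43.7 ± 2.82 FPKM (SD, n = 2). Pstpip1, the cytoskeletal adaptor that binds Ptpn12, had 14.4 ± 1.34 and 10.3 ± 1.54 FPKM with the same numbers of libraries, lower like Ptpn12 itself. The GC correction took the log2 difference of Dok1 from 0.43 to 0.13 and that of Pstpip1 from -0.45 to -0.75 (limma adjusted p = 0.208 before and 0.270 after).

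Of the JAK kinases, substrates of Ptpn1 and Ptpn2, Jak1 had lower values (87.4 ± 6.13 and 65.1 ± 2.23 FPKM, SD, n = 3 and n = 2) and Jak3 higher values (64.7 ± 2.31 and 85.8 ± 6.42). The log2 differences were -0.42 and 0.40, with limma adjusted p-values of 0.166 and 0.169, and after the GC correction -0.27 and 0.07. Jak1 passed with array weights (-0.45, limma adjusted p = 0.0438), in a range of 0.0438 to 0.9995 over its alternatives. Mapk3, which encodes a MAP kinase substrate of Ptpn7, had 30.0 and 39.5 FPKM, with a limma adjusted p of 0.176, and its log2 difference went from 0.39 to 0.10 with the GC correction. Among the thiol systems that can restore oxidised phosphatases, thioredoxin (Txn1) had 355 and 282 FPKM and its reductase Txnrd1 24.9 and 19.1, with limma adjusted p-values of 0.264 and 0.2999.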

How the data were processed

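About 10000 sorted cells gave each library (TRIzol extraction, NEBNext Ultra kit), per the labels' protocols. The authors deposited FPKM values per gene, and the submitters' processing notes name TopHat2 2.0.8, Cufflinks 2.1.1 and the build mm9. The annotation, strand setting and any scaling between libraries are not given in the sources used here. The table held 23234 genes, and 1 line that repeats a header was left out. Columns were matched to samples by title.

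Genes that reached 1 FPKM in 2 or more of the 5 libraries were tested on log2(FPKM + 1), a pseudocount of 1, with limma 3.58.1 in R 4.3.3 (trended prior, Benjamini-Hochberg adjustment, threshold 0.05). The fit was tested on simulated data with independent noise. These held no GC trend and no outlying library, so that test does not show how the fit handles either. Transcript length and GC content came from the longest protein-coding GENCODE M21 transcript of the same symbol, found for 98.8% of tested genes. The GC correction was a lowess fit with a span of 0.3. No coordinates were used, since the builds differ. Depth was estimated from the first step of FPKM × length in genes of at least 1500 nt, and limits precision through counting error, most for Ptpn22 and Ptpn12.

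The members and lists were chosen with earlier results of these data known. By the rule for named genes, all members, Csk, every other tyrosine phosphatase past the filter and up to 2 partners per subgroup with the smallest p were described, except that values of some list genes are not reported here. Alternatives were other pseudocounts, filters and scalings, no trend in the prior, array weights, the GC correction, the replicate block and each library left out.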

Additional observations from a re-analysis of the deposited data

How the results depend on the processing

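Of 198 refitted values of the 10 phosphatases, 1 passed the adjusted threshold by limma, which was Ptpn2 with the replicate block (log2 difference -0.74, adjusted p = 0.0488), so that 1 member passed there and 0 under every other alternative. Csk(+/+) replicate 3, the library with the lowest estimated weight (0.259), has no partner number, so the block also drops it from the contrast. The titles do not say that the numbers mark a shared source. Deviations from the group means had correlations of -0.13 and 0.11 in same-numbered pairs and -0.19 to 0.19 in the other pairs. The deviations of the 2 Csk(f/f) libraries are mirror images of each other, so these correlations cannot show whether the numbers mark pairs. The number of genes called over all tested genes was 8 and came to 492 with the block, 671 with array weights, 5 without a filter, 5 to 411 with 1 library left out (411 without Csk(+/+) replicate 3, 5 without either Csk(f/f) library) and 5 to 44 with the GC correction as well. Among the other tyrosine phosphatases 1 gene, Acp1, passed with array weights, with the block and without Csk(+/+) replicate 3 (0 to 1 over the libraries left out). Among partners and substrates 3 of the 41 tested passed with array weights (Blk, Jak1 and Jak2). With the block 1 passed, Blk, and the same gene without Csk(+/+) replicate 3, but 0 without Csk(+/+) replicate 1 or 2. Of all tested genes 6.55% passed with array weights, 4.8% with the block and 4.05% without Csk(+/+) replicate 3.

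The difference of Ptpn11 turned negative with the GC correction (-0.020), array weights (-0.12), the block (-0.19) and without Csk(+/+) replicate 3 (-0.19) or Csk(f/f) replicate 2 (-0.09), and with the GC correction and the same library left out (-0.23 and -0.14). Over the libraries left out alone it ran from -0.19 to 0.23, and that of Ptpn18 from -0.038 to 0.22. That of Ptpn18 turned negative with the GC correction (-0.24), without Csk(+/+) replicate 1 (-0.03) or Csk(f/f) replicate 1 (-0.038), and with the correction and each library left out in turn (-0.33, -0.35, -0.028, -0.36 and -0.11). That of Ptprc was 0.0015 with the correction and without Csk(f/f) replicate 2. The balance of Ptpn22 and Csk turned to -0.089 with a pseudocount of 5, to -0.017 with the block and to -0.017 without Csk(+/+) replicate 3 (-0.017 to 0.15 over the libraries left out). The balance of Ptprc and Csk kept its sign (-1.08 to -0.46 over the libraries left out). Ptpn12 and Ptpn22 have no value with a filter at 5 FPKM. The cause of these changes was not tested.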

Other observations

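Further families of cysteine-based phosphatases were measured, in a list chosen after the main values were seen. The PRL phosphatases differed among themselves. Ptp4a3 had 130.0, 156 and 153 FPKM in the controls, against 206 and 202 in Csk(f/f)-labelled cells, whereas Ptp4a2 had 128, 108 and 142 and then 107 and 83.0. Neither group of values overlapped the other for these genes, and their limma adjusted p-values were 0.158 and 0.225. Of all tested genes 20.7% were separated upward and 24.5% downward in this way. After the GC correction the log2 differences were 0.29 for Ptp4a3 and -0.11 for Ptp4a2, from 0.48 and -0.41. Ptp4a1 was low, at 0.873 to 3.39 FPKM over the 5 libraries, and overlapped.

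The CDC25 phosphatases activate cyclin-dependent kinases. Cdc25b had 61.0, 70.3 and 58.0 FPKM in Csk(+/+) and 83.4 and 77.2 in Csk(f/f)-labelled libraries (log2 difference 0.35, limma adjusted p = 0.210). Cdc25c, the mitotic member, had 6.91, 4.98 and 7.49 FPKM and then 3.96 and 4.07 (-0.56, limma adjusted p = 0.209). Cdc25a, the member of the G1 to S transition, had a mean of 19.3 FPKM in Csk(+/+) and 20.5 in Csk(f/f)-labelled libraries, with overlapping values. Of the 6 genes of both families 0 passed the adjusted threshold by limma, and 4 had an unadjusted p under 0.05 (2 with higher and 2 with lower values), beside 21.7% of all genes. After the GC correction 0 of the 6 were left at that level.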
